A study of Mus musculus with 18 samples.

Results

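The NRF2 and antioxidant genes described here are 10 named genes: the regulators Nfe2l2, Nfe2l1 and Keap1, the heme-degrading enzyme gene Hmox1, the superoxide and peroxide enzymes Sod1, Sod2 and Cat, the glutathione synthesis genes Gclc and Gclm, and the thioredoxin reductase gene Txnrd1. They were followed through 4 deposited tables of differential m6A peaks in mouse uterus. A peak was counted for a gene when its annotation named that gene, or when the peak was assigned to the gene and its centre lay between the ends of the gene. This gave 12 of the 40929 peaks used, in 5 of the 10 genes. The share of all genes with a peak in any of the 4 tables was not counted, so the 5 cannot be read as many or few. A further 2 peaks lay on exons of Nfe2l2 and Cat but were assigned to neighboring genes, and they are given separately below.

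Uteri were collected on day 5 of pregnancy (D5) from wild-type ICR mice of 8 weeks. Veh mice received 0.9% saline each day from D1 to D4. LPS mice received saline on the same days and lipopolysaccharide, the endotoxin of Gram-negative bacteria, at 0.5 mg/kg on D3 and D4, 30 min after the first injection. Mel+LPS mice received melatonin at 10 mg/kg each day in place of saline, with the same LPS injections. The paper gives the solvent of melatonin as saline with ethanol and calls the control injection vehicle, without stating whether it held ethanol. Each of the 3 treatments had 3 input and 3 immunoprecipitated libraries, 18 in all. The RNA came from whole tissue, so that fewer cells of a type and less modified RNA per cell cannot be told apart.

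For each of the comparisons LPS vs Veh and Mel+LPS vs LPS, there was a table of up peaks and a table of down peaks. A log10 likelihood ratio was given per peak, the score by which the authors' software rated how much better the reads were described by a difference between the treatments than by none. A score is not a fold change. There was 1 score per peak and none per replicate, so no value below has a replicate error, no test was made, and the read depth behind the scores is unknown. The up tables held 12023 peaks in LPS vs Veh (median score 2.88) and 13436 in Mel+LPS vs LPS (median 2.17), and the down table of Mel+LPS vs LPS held 9211 (median 3.09). Down peaks of LPS vs Veh were used on chromosomes 1 to 9, where the table is complete, and numbered 6259 (median 2.65). That range holds Nfe2l2, Keap1, Hmox1, Cat, Gclc and Gclm, whereas Nfe2l1, Sod1, Sod2 and Txnrd1 lie elsewhere and could not be examined for down peaks in LPS vs Veh. Of 19 markers of uterine stroma, epithelium, muscle, vessels and leukocytes, 17 had a peak in some table by the same rule. Only 14 had a peak with its centre on a GENCODE exon. Hoxa10 and Hoxa11, transcription factors of the uterine stroma, had none by either count. The share of all genes with a peak in some table was not counted.

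NRF2, the protein of Nfe2l2, is a transcription factor that binds antioxidant response elements together with small MAF proteins. In resting cells, KEAP1 holds NRF2 and presents it to a CUL3 ubiquitin ligase for degradation, and oxidants or electrophiles that modify KEAP1 let NRF2 accumulate and turn on genes of heme breakdown, glutathione synthesis and the thioredoxin system. m6A is a methyl mark on adenosines of mRNA, placed mostly in the motif DRACH (any base but C, then A or G, then AC, then any base but G) and often near stop codons and in 3′UTRs, where reader proteins can alter the splicing, translation or decay of the transcript.

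In LPS vs Veh, 3 of the 10 genes had an up peak, namely Keap1, Sod2 and Gclc (30.0%, against 20.1% of all 21900 protein-coding genes). None of the 6 genes on chromosomes 1 to 9 had a down peak, where 22.0% of 11966 genes had one. In Mel+LPS vs LPS, 3 genes had 6 up peaks (Nfe2l1, Gclc and Txnrd1, 30.0% against 25.6% of all genes) and 2 genes had 3 down peaks (Keap1 and Sod2, 20% against 15.3%). In a set of 10 genes, 1 gene more or less moves a share by 10 percentage points, and nothing particular to these genes can be read from the counts. Peaks were also counted for the gene on whose GENCODE exons, of any transcript, their centre lay. By this count, 2, 0, 4 and 2 of the genes had a peak in the LPS up, LPS down, Mel+LPS up and Mel+LPS down tables. The corresponding shares of all protein-coding genes were 16.9%, 17.6%, 21.7% and 13.0%.

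The scores of the member peaks were low for these tables, with 9 of the 12 below the median of their own table. These medians are over peaks of every kind, whereas member peaks were chosen inside genes. Of all 40929 peaks, 12356 named no gene and had their centre outside the gene they were assigned to. The 3 up peaks of LPS vs Veh scored from 1.27 to 1.89 (median 1.69). The 6 up peaks of Mel+LPS vs LPS ranged from 1.27 to 3.61 (median 1.41), and the 3 down peaks from 1.70 to 3.12 (median 2.26). Above their table's median stood only the 2 peaks of Txnrd1 and the down peak of Sod2.

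**Figure D1:**
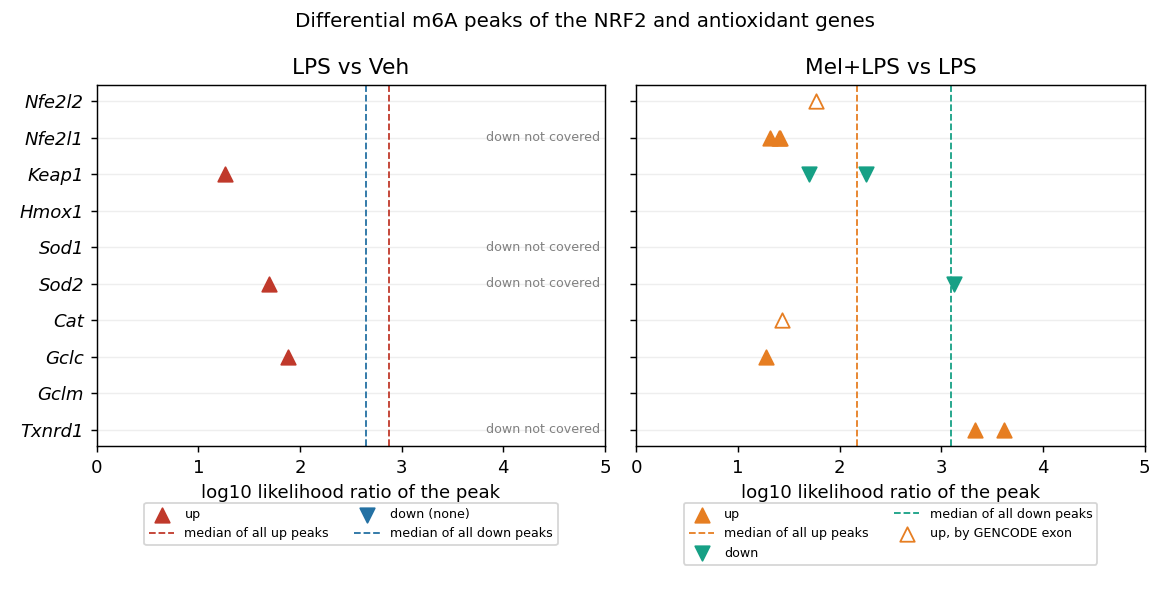
Score (log10 likelihood ratio) of each differential peak on the 10 genes, in LPS vs Veh (left) and Mel+LPS vs LPS (right). Filled triangles are peaks counted by annotation or assignment, open triangles the 2 peaks placed by GENCODE exons, and dashed lines the median score of each whole table; Keap1 and Sod2 have an up triangle on the left and down triangles on the right.

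**Figure D2:**
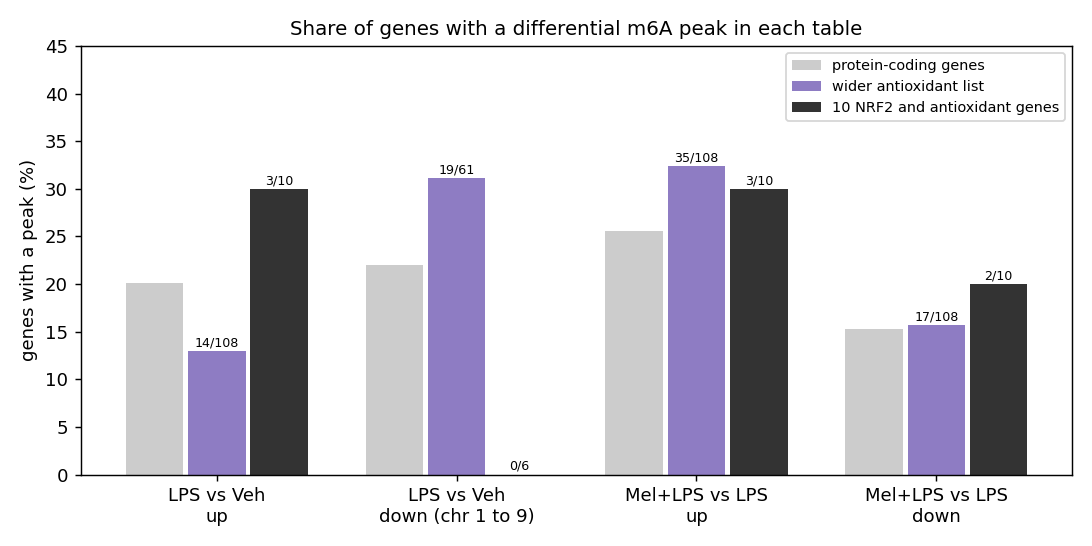
Share (%) of the 10 genes, of the 108 other genes of a wider NRF2 and antioxidant list and of all protein-coding genes with at least 1 peak in each of the 4 tables. The bars of the 10 genes stand at 30.0%, 0, 30.0% and 20%, with down peaks of LPS vs Veh counted over the genes on chromosomes 1 to 9.

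Nfe2l2 encodes NRF2 itself. By annotation it had no peak in any table. On the GENCODE exons, however, it carried an up peak of Mel+LPS vs LPS at chr2:75675702-75676010 (GRCm38, score 1.77, higher than 35.3% of the peaks in its table), which the authors' annotation gives as 3′UTR and assigns to the neighbor Hnrnpa3. The peak spanned the stop codon: it covered positions 1978 to 2286 of a transcript of 2475 bases whose stop codon ends at 2027, and its centre lay 105 bases after it. It held 7 DRACH motifs. The 30 bases around the motif nearest the centre are shown as the site on the transcript of NRF2 itself, on the minus strand and with DRACH in capitals.
Nfe2l2 3′UTR, chr2:75675851-75675880: acactttataagTAACTatgcagaattata

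Nfe2l1 encodes NRF1, a relative of NRF2 that is anchored in the endoplasmic reticulum and drives proteasome genes as well as antioxidant genes. It had 3 peaks, as many as Keap1, and each of them was up in Mel+LPS vs LPS. A peak in the 5′UTR at chr11:96827834-96828150 scored 1.41. The coding peaks at chr11:96827282-96827462 (exon 2 of 5 of the annotated transcript, codons 82 to 142 of 741) and chr11:96820020-96820149 (exon 4 of 4 of another transcript, codons 418 to 461) scored 1.40 and 1.31. All lay wholly within exons, and all stood low in their table, at percentiles 16.6, 16.1 and 10.3. The last of them, on the minus strand, is shown because its 130 bases held 4 DRACH motifs, of which 2 contained GGAC, the form of the motif that the m6A writers most often use.
Nfe2l1 coding peak, chr11:96820020-96820149: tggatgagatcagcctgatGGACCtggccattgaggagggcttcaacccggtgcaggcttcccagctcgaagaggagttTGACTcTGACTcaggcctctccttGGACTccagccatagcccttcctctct

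Keap1, the repressor of NRF2, was listed in both comparisons, at the same place and in opposite directions. An up peak of LPS vs Veh at chr9:21231649-21231785 (score 1.27, percentile 6.55) and a down peak of Mel+LPS vs LPS at chr9:21231577-21231787 (score 2.26, percentile 40.0) overlapped over 137 bases, with ends 2 bases apart. Both started in exon 4 of 6 and ran past its 3′ end into the intron, by 48 and 120 bases. Their exonic parts of 89 and 91 bases covered codons 481 to 511 of 624, in the Kelch part of the protein through which KEAP1 binds NRF2. An antisense gene, Gm16754, has exons at the same position on the other strand, and since the peaks carry no strand the 2 genes cannot be told apart there. The exonic part of the LPS peak, on the minus strand, is shown as the coding site listed in both comparisons and holds 2 DRACH motifs (capitals), neither with GGAC.
Keap1 exon 4, chr9:21231697-21231785: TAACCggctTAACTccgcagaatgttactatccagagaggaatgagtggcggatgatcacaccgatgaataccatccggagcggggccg
Keap1 also had a down peak of Mel+LPS vs LPS in the 3′UTR at chr9:21230289-21230403 (score 1.70, percentile 26.6), with its centre 356 bases after the stop codon. This peak had no counterpart in LPS vs Veh. All 3 of its DRACH motifs held GGAC, and 30 bases around the motif nearest the centre are shown.
Keap1 3′UTR, chr9:21230305-21230334: atcaattccagtGGACAggggaagaaggga

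Hmox1, which encodes the inducible heme oxygenase and is a classical NRF2 target, had no peak in any of the 4 tables, either by annotation or on its exons. The same was true of Sod1, the cytosolic superoxide dismutase, for which down peaks of LPS vs Veh could not be examined. The absence of a differential peak does not show that a transcript was unmodified.

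Sod2, the mitochondrial superoxide dismutase and a target of NF-κB in inflammation, showed the pattern of Keap1. A 3′UTR peak was up in LPS vs Veh at chr17:13016678-13016796 (score 1.69, percentile 24.9), and a peak with the same start and an end 2 bases further was down in Mel+LPS vs LPS (score 3.12, percentile 50.2). The centre of the LPS peak lay 1566 bases after the stop codon, at position 2464 of 5861 of the transcript. The sequence there was shared with many other transcripts: of the 100 runs of 20 bases in the LPS peak, 44 also occurred in transcripts of other protein-coding genes, 1030 genes in all, and a single run occurred in 657 of them. In the other members' peaks at most 2 runs did so. Each run was searched for together with its reverse complement. How reads that match several genes were handled is not given in the sources used here, so the part of such reads in the Sod2 scores was not tested. The 30 bases around the motif nearest the centre, on the plus strand, are shown because the same site appeared in both comparisons.
Sod2 3′UTR, chr17:13016735-13016764: tttggctttttgAGACAgggtttcattgtg

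Cat encodes catalase, which breaks down hydrogen peroxide. As for Nfe2l2, it had no peak by annotation but an up peak of Mel+LPS vs LPS on its GENCODE exons, at chr2:103454552-103454679 (score 1.43, percentile 18.3), which was assigned to the neighbor Elf5. The centre lay 141 bases after the stop codon, and the peak held 3 DRACH motifs. The annotation of the UTR classes names no gene, and 56.6% of all 8430 peaks in the 3′UTR class had their centre outside the gene they were assigned to. The site is shown on the minus strand as the other member peak of this kind.
Cat 3′UTR, chr2:103454589-103454618: tagagtgaatgaTAACCatgcttttgatgc

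Gclc, the catalytic subunit of glutamate-cysteine ligase and thus the first enzyme of glutathione synthesis, had an up peak in both comparisons, but at different sites. The LPS vs Veh peak at chr9:77775140-77775336 (score 1.89, percentile 31.5) began in exon 2 of 16 and had 52 exonic bases over codons 71 to 88 of 637. The Mel+LPS vs LPS peak at chr9:77781096-77781206 (score 1.27, percentile 8.03) began in exon 5 and had 47 exonic bases over codons 191 to 207. These peaks were 5759 bases apart on the chromosome, and neither had an overlapping peak in another table. Gclm, the modifier subunit that binds Gclc, had no peak by either assignment. The exonic parts of the Gclc peaks are shown on the plus strand to set the sites side by side, with 3 and 1 DRACH motifs. The capitals of GGACAAACC in the first are 2 overlapping motifs.
Gclc exon 2, chr9:77775140-77775191: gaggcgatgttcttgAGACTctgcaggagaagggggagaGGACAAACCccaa
Gclc exon 5, chr9:77781096-77781142: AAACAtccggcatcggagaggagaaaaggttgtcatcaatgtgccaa

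Txnrd1, the cytosolic thioredoxin reductase that regenerates reduced thioredoxin with NADPH, had the highest scores among the 10 genes, in 2 up peaks of Mel+LPS vs LPS. The peak in the 5′UTR at chr10:82860580-82860748 scored 3.33 (percentile 71.0), and that in exon 10 of 15 at chr10:82884540-82884728 scored 3.61 (percentile 73.5). On the transcript used here, both lay mostly in introns. They had 51 and 22 exonic bases, and 118 and 167 bases past the 3′ end of the exon. The latter peak is annotated to Txnrd1 but assigned to Eid3. No DRACH motif occurred in either exonic part, whereas the exonic parts of all 12 other member peaks held at least 1. Only the 51 and 22 exonic bases of this transcript were searched, while exonic parts of other peaks reached 317 bases. The contrast therefore cannot be separated from the length searched or the transcript chosen. The short exonic part of the coding peak, over codons 305 to 312 of 499, is shown as the member sequence with the highest score and no motif.
Txnrd1 exon 10, chr10:82884540-82884561: tgggcgtgaagataaacgaaaa

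Across the 14 peaks counted by either assignment, 7 were placed in coding sequence, 5 in the 3′UTR and 2 in the 5′UTR. All 14 were placed on 1 GENCODE transcript per gene. In 5 of the 14, the centre lay off the exons of that transcript, and the region is that of the middle of the exonic part. These were the down peak of Keap1 at exon 4 and the peaks of Gclc and Txnrd1. Over all GENCODE transcripts, 6 up peaks of Mel+LPS vs LPS in 4 genes had the centre on an exon. Not all of the Gclc and Txnrd1 centres therefore lay off the exons of every transcript. In 6 of the 14, the peak ran past the 3′ end of an exon of the transcript used, and in 0 of 14 past the 5′ end. DRACH was found in the exonic part of 12 of the 14 and GGAC in 4. Among the 9 with the centre on an exon of the transcript used, 9 held DRACH and 3 held GGAC. The shares were 97.5% and 60.0% of 15565 peaks of all genes placed in the same way, searched on the transcript strand. The density was 20.5 DRACH per 1000 exonic bases in the members and 24.7 in all peaks. After a shift of every member peak by 100 bases in the 5′ direction, 9 of 9 held DRACH, at 22.2 per 1000 bases, and 6 of 9 held GGAC. Of all peaks shifted in the same way, 96.8% held DRACH, at 24.4 per 1000 bases, and 59.7% held GGAC. The 9 member peaks were 115 to 317 bases wide, so a shift of 100 bases left shifted windows partly on the peaks. The shift therefore cannot separate sequence in the peaks from sequence beside them. A match to DRACH is a description of the sequence and does not locate a modified base.

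**Figure D3:**
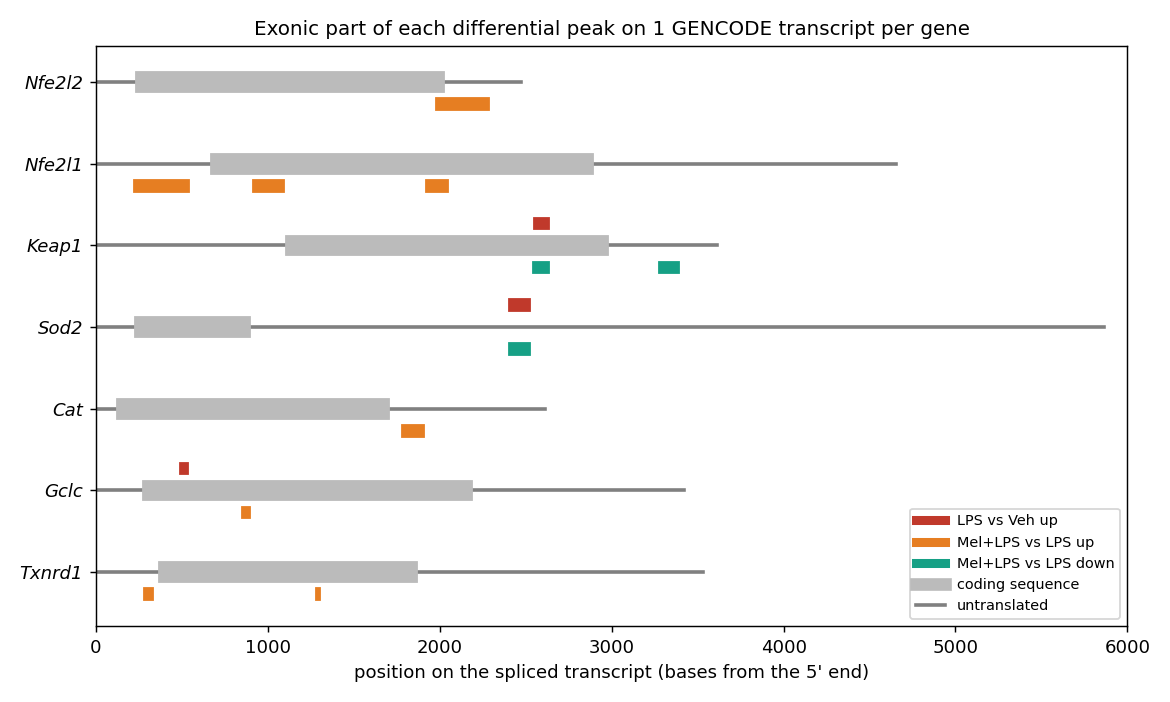
Position of the 14 member peaks on 1 GENCODE transcript of each gene, in bases from the transcript's 5′ end, with coding sequence drawn thick and peaks colored by table. The up peak of LPS vs Veh and the down peak of Mel+LPS vs LPS lie at the same place in Keap1 and in Sod2, while Hmox1, Sod1 and Gclm, which had no peak, are not drawn.

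Of the 3 genes with an up peak in LPS vs Veh, Keap1 and Sod2 thus had a down peak at the same site in Mel+LPS vs LPS and Gclc did not. How often this occurred among the up peaks of all genes was not counted, so it cannot be read as particular to these genes. Both comparisons use the LPS libraries, so that a high value in these libraries moves a site up in the first and down in the second, and opposite calls are not independent of each other. Without values per library, the share of this in Keap1 and Sod2 cannot be computed. Input levels of the transcripts were not analysed here, and a change in transcript level was therefore not tested for any of these sites.

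To set the 10 genes beside the rest of their pathway, peaks were counted by the same rule in a wider list of 108 other genes. Up peaks of LPS vs Veh occurred in 14 of them (13.0%) and up peaks of Mel+LPS vs LPS in 35 (32.4%), beside 20.1% and 25.6% of all genes. Down peaks occurred in 19 of the 61 genes on chromosomes 1 to 9 in LPS vs Veh (31.1%) and in 17 of 108 in Mel+LPS vs LPS (15.7%), beside 22.0% and 15.3%. The wider list therefore had a lower share than all genes in the LPS up table and a higher share in the LPS down and Mel+LPS up tables. All genes were counted without a filter for expression in the uterus, so the list and the background may differ in expression. Whether these shares differ from the background beyond chance was not tested.

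Counts in the groups of the wider list are given beside the shares of all genes, and with 4 to 37 genes per group and table no difference between a group and all genes was tested. Of 14 regulators and partners of NRF2, 5 had an up peak in LPS vs Veh (35.7%, all genes 20.1%) and 8 in Mel+LPS vs LPS (57.1%, all genes 25.6%). Down peaks occurred in 1 of the 4 on chromosomes 1 to 9 in LPS vs Veh (25.0%, all genes 22.0%) and in 2 in Mel+LPS vs LPS (14.3%, all genes 15.3%). Cul3, the ligase scaffold that KEAP1 recruits, had overlapping peaks in exon 9 of 17, up in LPS vs Veh (2.24) but down in Mel+LPS vs LPS (1.5), and a further peak in exon 7 that was up in Mel+LPS vs LPS (1.26). Bach2, a repressor that competes for the same DNA elements, had a 5′UTR site that scored 6.86 as an up peak of LPS vs Veh and 7.35 as a down peak of Mel+LPS vs LPS. It also had an up peak of Mel+LPS vs LPS in exon 5 of 7 that scored 8.13, so that, like those of Cul3, its sites did not share a direction. Dcaf11, a substrate receptor of another ubiquitin ligase, was the only gene of the list with overlapping peaks in the same direction, up in both comparisons (1.91 and 3.41), over 7 bases of the 5′UTR.

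In the thioredoxin and peroxiredoxin group of 19 genes, 2 had an up peak of LPS vs Veh (10.5%, all genes 20.1%) and 6 of the 10 on chromosomes 1 to 9 a down peak (60.0%, all genes 22.0%). In Mel+LPS vs LPS, 9 had an up peak (47.4%, all genes 25.6%) and 3 a down peak (15.8%, all genes 15.3%). Txn1, thioredoxin itself and the substrate of Txnrd1, had a 5′UTR site that was down in LPS vs Veh (2.03) but up in Mel+LPS vs LPS (1.63). Srxn1, the sulfiredoxin that repairs oxidized peroxiredoxins, had the highest score of the wider list among up peaks of Mel+LPS vs LPS, 9.43 in the 3′UTR, but also a down peak of the same comparison elsewhere in its 3′UTR, at chr2:152109231-152109334, with a score below the median of 3.09 of that table. Msrb3, a methionine sulfoxide reductase, had the opposite order to Txn1, with an intronic site up in LPS vs Veh (3.78) but down in Mel+LPS vs LPS (3.85).

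Genes that supply NADPH, on which both glutathione and thioredoxin reduction depend, numbered 7. None had an up peak in LPS vs Veh or a down peak in Mel+LPS vs LPS, where 20.1% and 15.3% of all genes had one. Down peaks of LPS vs Veh occurred in 2 of 5 (all genes 22.0%) and up peaks of Mel+LPS vs LPS in 4 of 7 (all genes 25.6%). Isocitrate dehydrogenase Idh1 had overlapping peaks in exon 3 of 9, down in LPS vs Veh (4.04) but up in Mel+LPS vs LPS (2.94). Malic enzyme Me1 had the same order in exon 9 of 14 (3.85 and 3.27).

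Of the 7 heme and iron genes, 1 had an up peak in LPS vs Veh and 1 of 4 a down peak, and in Mel+LPS vs LPS up peaks occurred in 4 and down peaks in 1 (all genes 20.1%, 22.0%, 25.6% and 15.3%). Among them, Slc40a1, the iron exporter ferroportin, had the highest score of the wider list in any table, 14.4 for a 3′UTR peak down in LPS vs Veh. A site in its exon 7 of 8 was down in LPS vs Veh (7.85) but up in Mel+LPS vs LPS (1.39). Fech, the ferrochelatase that completes heme, had an intronic up peak of Mel+LPS vs LPS (6.28). The glutathione group of 37 genes had up peaks of LPS vs Veh in 4 genes and down peaks in 6 of 24, and in Mel+LPS vs LPS up peaks in 6 and down peaks in 4, or 10.8%, 25.0%, 16.2% and 10.8% of genes beside the same shares of all genes. Gstm2, a glutathione S-transferase from a family of similar genes, had a site up in LPS vs Veh (1.98) but down in Mel+LPS vs LPS (1.67).

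Of the 15 detoxification and export genes, 2 had an up peak in LPS vs Veh (13.3%, all genes 20.1%) and 1 of the 8 on chromosomes 1 to 9 a down peak (12.5%, all genes 22.0%). In Mel+LPS vs LPS, 2 had an up peak (13.3%, all genes 25.6%) and 6 a down peak (40.0%, all genes 15.3%). Aldehyde oxidase Aox1 had a site of identical position in exon 15 of 20 that was up in LPS vs Veh (7.22) but down in Mel+LPS vs LPS (6.47), and an intronic site in the same order (1.92 and 2.49). The exporter gene Abcc4 had an intronic site that was up in LPS vs Veh (1.46) but down in Mel+LPS vs LPS (9.99), and the aldose reductase gene Akr1b3 a site in exon 3 of 10 that was down in LPS vs Veh (1.36) but up in Mel+LPS vs LPS (2.69). In the group of 9 superoxide and other genes, 0 had an up peak in LPS vs Veh and 2 of 6 a down peak, and in Mel+LPS vs LPS up peaks occurred in 2 and down peaks in 1 (all genes 20.1%, 22.0%, 25.6% and 15.3%). Of these, Park7 had an intronic site that was down in LPS vs Veh (1.69) but up in Mel+LPS vs LPS (3.67). In all, 14 pairs of peaks overlapped between the comparisons, 7 in 6 genes up in LPS vs Veh but down in Mel+LPS vs LPS, 6 in 6 genes in the reverse order and 1 up in both. The 2 pairs of Keap1 and Sod2 were also up and then down, and the shared LPS libraries bear on all of these pairs. The reverse order could be found on chromosomes 1 to 9 only, so the counts of the 2 orders are not comparable. Among the pairs up and then down, those of Abcc4 and Msrb3 lie on chromosomes 14 and 10. How common such pairs are among all genes was not counted. Runs shared with other transcripts, as found in Sod2, were counted for the peaks of the 10 genes only and not for the wider list.

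**Figure D4:**
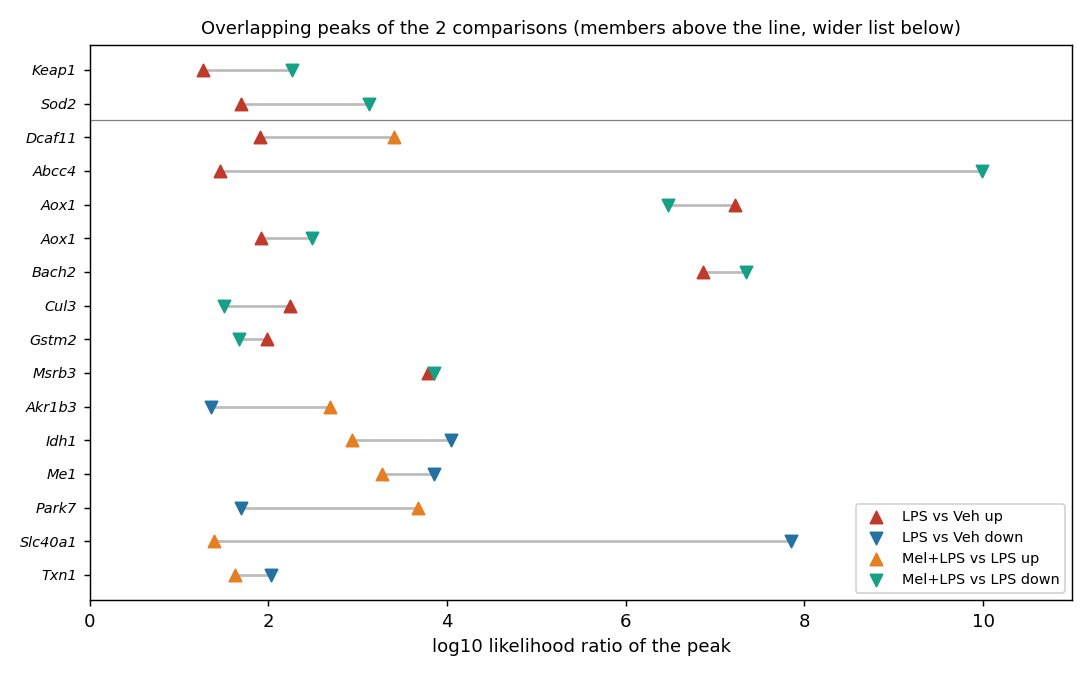
Scores (log10 likelihood ratio) of overlapping peaks in LPS vs Veh and Mel+LPS vs LPS, for the 2 pairs of Keap1 and Sod2 and the 14 pairs of the wider list. Lines join the scores of a pair and markers give the direction in each comparison; Bach2 and the exon 15 site of Aox1 had scores of 6.47 to 7.35 in both, while Keap1 and Sod2 had the lower of their scores in LPS vs Veh.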

How the data were processed

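Uterine RNA of 3 treatments gave 9 input and 9 m6A-immunoprecipitated libraries. For the authors' peaks, Fastp was used for trimming, STAR 2.5.2a for alignment, exomePeak2 for peak calling, MACS2 (given as version 3.4) for differential peaks and ChIPseeker 1.22.1 for annotation. The score that the authors deposited for each peak is the log10 likelihood ratio of their comparison, used as it stands. How replicates were combined is not given in the sources used here.

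Peaks were matched to genes by annotation and position, and placed on 1 transcript per gene of GENCODE M21 (GRCm38), from which sequences and motif counts were taken. The background was all protein-coding RefSeq genes, with no filter for expression. The members and lists were chosen with earlier results of these data known. All members were named, and from the wider list the genes with overlapping peaks in 2 tables and the 3 highest scores per table. The alternatives were minimum scores of 2 and 3, exon-only and assignment-only gene matching, chromosomes 1 to 9, and other overlap and motif rules. The steps were checked on made data and recovered 2000 of 2000 gene matches, 300 of 300 exon placements and 300 of 300 motif counts. Python 3.11.15, numpy 2.4.6, pandas 2.3.3 and matplotlib 3.10.9 were used.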

Additional observations from a re-analysis of the deposited data

How the results depend on the processing

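The values have no replicate error, and the depth that limits them is unknown. No paired analysis was possible because the tables hold 1 value per peak and none per replicate, and leaving out a replicate was not possible for the same reason. Of 74 alternative values, 44 stayed within 1.5 times the reported one and 30 did not. With a minimum score of 2, the members had 0 up peaks in LPS vs Veh, 2 up peaks in 1 gene in Mel+LPS vs LPS and 0 sites shared between tables, and the wider list had 6, 8, 16 and 5 genes in the LPS up, LPS down, Mel+LPS up and Mel+LPS down tables. With a minimum of 3, the up peaks numbered 0 in LPS vs Veh and 2 in 1 gene in Mel+LPS vs LPS, the down peaks of Mel+LPS vs LPS 1 in 1 gene, and the wider list had 4, 5, 9 and 5 genes. When every assigned peak was counted wherever it lay, 1 gene had 1 down peak in LPS vs Veh and 4 genes had 5 down peaks in Mel+LPS vs LPS, and the wider list rose to 23 genes in the LPS up and 26 in the Mel+LPS down table. Shares of all genes were not computed for the minimum scores or for every assigned peak. Whether the wider list stays above or below all genes under these settings is therefore not known. On chromosomes 1 to 9 alone, 1 gene had 1 up peak and 1 gene had down peaks in Mel+LPS vs LPS. Without peaks that hold repeated runs, chosen after seeing the data, 1 shared site was left, that of Keap1. Counting GGAC in place of DRACH left 3 of 9 peaks with a motif. What lay behind these changes was not tested.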

Other observations

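Some peaks were assigned to the 10 genes without lying inside them, and they had higher scores than most of the peaks described above. Upstream of Nfe2l2, a peak at chr2:75705381-75705607, 718 bases from the transcription start, was down in LPS vs Veh (score 4.87), and a peak at chr2:75705195-75705310, 532 bases from the start, was up in Mel+LPS vs LPS (3.29). Both lay on exons of the gene E030042O20Rik. An intergenic site 58234 bases upstream of Gclc, at chr9:77696102-77696301, was up in LPS vs Veh (5.04) and, at the identical position, down in Mel+LPS vs LPS (5.12). Another, 8800 bases upstream of Txnrd1 at chr10:82825005-82825151, was down in Mel+LPS vs LPS (6.26). Within Gclm, the modifier subunit with no peak of its own, a peak at chr3:122257276-122257391 was down in LPS vs Veh (1.47) and is annotated to Gm6061, while the GENCODE exon there is that of Gm17494. Which transcripts gave the reads of these peaks was not tested.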
